A study of Mus musculus with 24 samples.

Results

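Brain and liver mtDNA of wild-type mice, given as C57BL/6J, were compared for the share of cytosines that stayed unconverted after bisulfite treatment. The comparison used 10 of the 24 libraries of the series. The study also had liver of wild-type ICR mice, and the paper does not say in which experiments it was used. The 4 libraries treated for 60 min, from biological preparations 1 and 2 of brain and preparations 1 and 2 of liver, carry the comparison between tissues. The 5, 15 and 40 min libraries of preparation 1 of each tissue, with 1 library per tissue and duration, serve as matched checks. The mitochondria had been washed, purified by ultracentrifugation and treated with the nuclease benzonase, and their DNA was linearised with the restriction enzyme BglII and mixed with lambda DNA free of 5-methylcytosine (5mC). The age and sex of the mice and whether a preparation pooled animals are not given in the sources used here, and a whole brain or liver holds many cell types whose mtDNA cannot be told apart. Synthetic mtDNA, a PCR product without 5mC, was treated for the same durations in 1 preparation and is given as the background.

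Bisulfite turns unmodified cytosine into uracil, which is read as thymine, while 5mC stays cytosine, so the unconversion rate of a site (the percent of covering reads that still show cytosine) is an upper measure of its methylation. Cytosines that bisulfite did not reach are counted in the same way. Mouse mtDNA is a circle of 16299 bp with 13 protein genes, 2 rRNA genes and 22 tRNA genes, and its strands differ in base composition, the light (L) strand being rich in cytosine and the heavy (H) strand in guanine. The proteins are subunits of respiratory complexes I, III, IV and V, which supply the ATP on which neurons and hepatocytes depend, and the control region holds the promoters and an origin of replication. Sites entered a comparison if all of its libraries covered them with at least 10 reads, as did 1189 of 3890 L-strand cytosines and 1759 of 1939 H-strand cytosines in the 4 libraries of 60 min.

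The stretches on which the L-strand comparison turned are printed here from the mm10 sequence of the L strand, 5′ to 3′. The first holds the only sites that passed the test between tissues, 6 cytosines shown in capitals, with 15 bases on either side. It lies at chrM:14837-14883, within the coding sequence of CYTB (nt 14145 to 15288), the cytochrome b subunit of complex III. The other lines are the longest runs of consecutive shared sites at which both brain libraries lay above or below both liver libraries, with the shared cytosines in capitals. These runs were chosen after their values were seen, at chrM:8191-8333 within ATP6 (a complex V subunit) and chrM:4343-4402 within ND2 (a complex I subunit).
CYTB stretch: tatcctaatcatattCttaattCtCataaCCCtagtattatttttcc
ATP6 run, brain higher: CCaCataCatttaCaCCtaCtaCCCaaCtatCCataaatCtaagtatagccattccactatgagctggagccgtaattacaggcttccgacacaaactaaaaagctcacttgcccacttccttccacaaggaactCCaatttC
ND2 run, liver higher: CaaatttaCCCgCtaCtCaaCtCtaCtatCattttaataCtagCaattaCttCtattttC
The CYTB stretch of 47 bases holds 11 cytosines and 1 guanine, and 1 read can cover several of its cytosines.

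The libraries differed in depth. They held 302234 to 1722313 calls (1 cytosine in 1 read), and the 60 min library of brain preparation 2 held the fewest. Its median coverage was 4 reads per L-strand and 82 per H-strand cytosine, against 15.5 to 23 and 242 to 346 in the other 3 libraries of 60 min. Median coverage was also taken over each 60 min library's own sites with at least 10 reads. At that coverage, 3 unconverted reads amount to 5.26 to 12% of L-strand reads and 0.834 to 3.19% of H-strand reads. Smaller rates of such a single site could not be resolved. On the L strand the 40 min libraries lay closer to the 60 min library of preparation 1 of the other tissue than to that of their own. The root mean square difference over 1189 sites was 4.06 percentage points between liver after 40 min and brain preparation 1 after 60 min, and 5.77 and 5.86 points between liver after 40 min and liver preparations 1 and 2. Brain after 40 min stood 4.68 and 4.56 points from liver preparations 1 and 2 and 5.75 points from brain preparation 1. Brain preparation 2 stood farthest, at 9.49 points from brain and 8.97 points from liver after 40 min. For the H strand these distances were 0.810 points for liver after 40 min to brain preparation 1 and 1.05 and 0.944 to the liver preparations, while brain after 40 min was nearest to brain preparation 1, at 0.926 points. The labels were kept as given, the cause was not tested, and the comparison at 60 min does not use these libraries.

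Averaged over the shared sites, brain and liver mtDNA did not separate on either strand after 60 min. On the L strand the mean unconversion rate was 39.3% and 41.5% in brain preparations 1 and 2, 39.6% and 38.9% in liver preparations 1 and 2, and 39.2% in synthetic mtDNA. Brain preparation 1 lay between the liver libraries and brain preparation 2 above them. Reads with nearly all cytosines unconverted, which the study removed, appear to be still counted in these L-strand rates, which are not read here as methylation levels. Of the shared L-strand sites, 32.5 to 36.6% had a rate of 90% or more in the 4 libraries. The tissue means were 40.4% ± 1.61 for brain and 39.3% ± 0.442 for liver (SD, n = 2 each), a difference of 1.16 points with p = 0.667 in a two-sided exact permutation test, which cannot go below 0.333 with 2 preparations against 2. Without brain preparation 2, over 2104 shared sites, the difference was 0.0812 points.

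The mean H-strand rate was 0.467% and 0.786% in brain preparations 1 and 2 and 0.653% and 0.552% in liver preparations 1 and 2, with 0.481% in synthetic mtDNA. The brain libraries were the lowest and the highest of the 4. Brain averaged 0.626% ± 0.226 and liver 0.602% ± 0.0720 (SD, n = 2 each), a difference of 0.0240 points with p = 1 in the exact permutation test. Leaving out brain preparation 2 turned the sign, to -0.122 points.

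**Figure D1:**
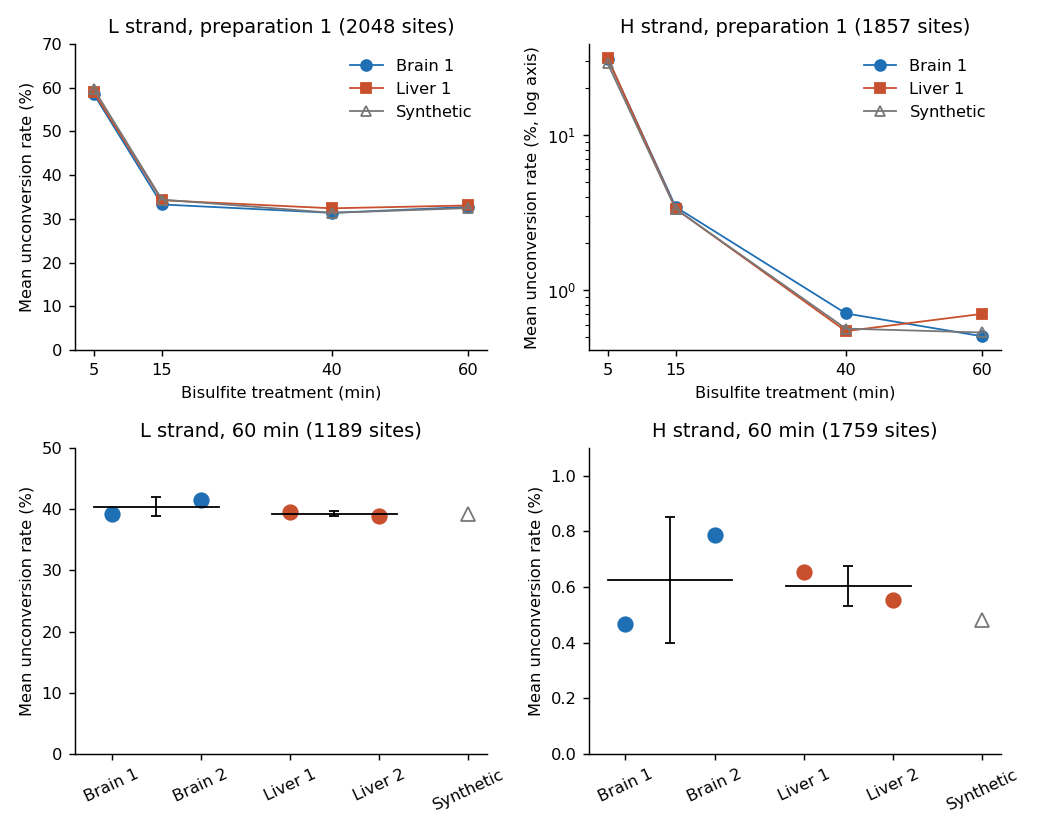
Mean unconversion rate (%) of the L strand (left) and H strand (right), with preparation 1 of brain and liver and synthetic mtDNA by duration in the upper panels (H strand on a log axis) and the 60 min libraries in the lower panels, where lines and bars give the tissue mean and SD (n = 2). Both tissues drop steeply from 5 to 40 min, the H-strand means cross between 40 and 60 min, and in both lower panels the liver libraries lie within the range of the brain libraries or, on the L strand, next to its lower end (38.9% against 39.3%).

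Where the reads lay differed more between the brain preparations than between tissues. L-strand cytosines were classed by their rate in the 60 min synthetic library, as under 10%, 10 to 90% or 90% or more. Cytosines of 90% or more took 24.6% of the L-strand calls of brain preparation 1, 48.9% of brain preparation 2, 34.2% of liver preparation 1 and 36.2% of liver preparation 2. The liver libraries lay between the brain libraries. Brain preparation 2 covered 65.7% of the cytosines of this class, but 33.9% of those under 10%, for which the other libraries reached 71.0 to 82.8%. When reads rather than sites were averaged over the 1189 shared sites, the L-strand rate was 29.9% in brain preparation 1 (95% Wilson interval 29.7 to 30.05%), 57.4% in brain preparation 2 (57.0 to 57.9%), 41.3% in liver preparation 1 (41.1 to 41.5%) and 44.1% in liver preparation 2 (43.9 to 44.4%). These intervals cover counting error only and treat calls of the same read as independent.

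**Figure D2:**
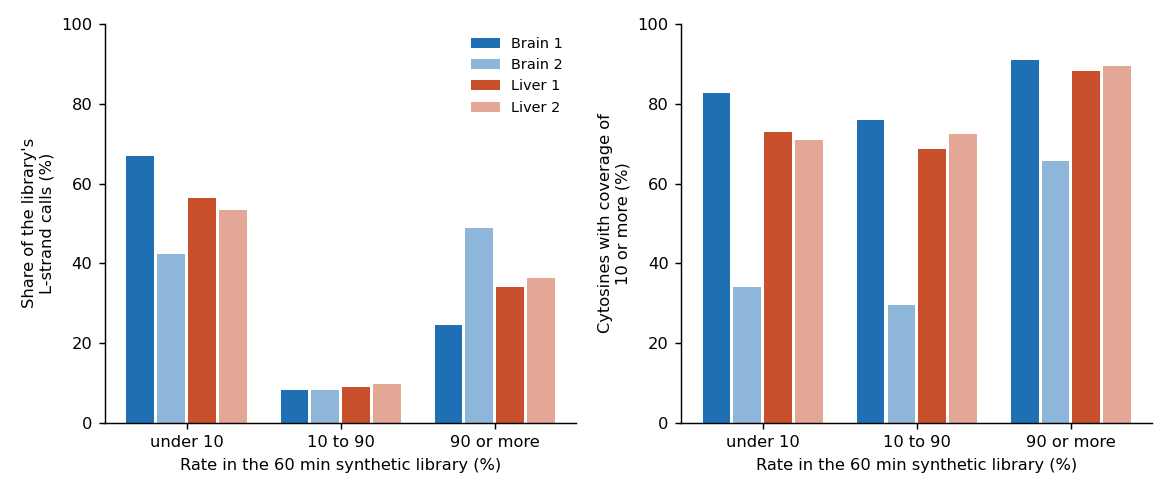
Share of each 60 min library's L-strand calls (%, left) and share of cytosines with coverage of 10 or more (%, right), by the rate class of the cytosine in synthetic mtDNA. Brain preparation 2 has the largest share of calls at cytosines of 90% or more (48.9%) and covers the fewest cytosines of every class.

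Within these classes the tissues again overlapped, and the excess of brain preparation 2 lay in the middle class. At the 184 shared cytosines of 10 to 90%, the means were 46.7% and 56.5% in brain and 47.1% and 44.3% in liver, a difference of 5.88 points (exact permutation p = 0.667). At the 622 cytosines under 10%, they were 0.768% and 1.86% in brain and 0.942% and 0.819% in liver. At the 383 cytosines of 90% or more, the 4 libraries ranged from 98.2 to 98.8%. Brain preparation 1 lay inside or below the range of liver in each class.

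In mammalian nuclear DNA 5mC sits mostly at CG, so the contexts were averaged separately, with H standing for A, C or T. At the 66 shared CG sites of the L strand, brain preparations 1 and 2 had 9.22% and 9.83% and liver preparations 1 and 2 had 9.14% and 9.06%. Both brain libraries lay above both liver libraries there, by 0.421 points on average, which gave the smallest p that the exact permutation test allows (0.333), and synthetic mtDNA had 8.79%. At 41 sites with coverage of 20 or more the CG difference was -0.0183 points. The 255 shared H-strand CG sites had 0.397% and 0.663% in brain and 0.527% and 0.518% in liver, against 0.400% for synthetic mtDNA, again with liver between the brain libraries. The 101 L-strand CHG sites averaged 9.68% ± 0.969 in brain and 9.22% ± 0.218 in liver, and the 344 H-strand CHG sites 0.799% ± 0.264 and 0.796% ± 0.0717 (SD, n = 2). The 1022 L-strand CHH sites averaged 45.4% ± 1.75 in brain and 44.2% ± 0.489 in liver, and the 1160 H-strand CHH sites 0.597% ± 0.223 and 0.562% ± 0.0866 (SD, n = 2). The high L-strand mean was thus that of CHH sites, in both tissues and in synthetic mtDNA, where it was 44.2%.

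On the H strand the spread of single sites between preparations of a tissue fell within the range seen between tissues. On the L strand the brain pair fell within that range and the liver pair slightly below it. On the L strand the mean absolute difference of a site was 3.57 points between the brain preparations, 2.29 points between the liver preparations and 2.38 to 4.07 points between a brain and a liver library. The lower and upper of these cross-tissue values belonged to brain preparations 1 and 2. Each pair spread more than counting reads allows, with root mean square differences 1.29 to 1.75 times the binomial error. At H-strand sites the brain preparations differed by 0.810 points, the liver preparations by 0.586 points and brain from liver by 0.512 to 0.856 points, and the ratio to the binomial error was 1.15 to 1.30.

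On the L strand the brain minus liver difference of a site was weakly shared between preparations and ran the other way in the 40 min libraries as labelled. Across the 1189 L-strand sites, which share reads with their neighbours, the differences of preparations 1 and 2 after 60 min had r = 0.25, and r = 0.13 with the liver libraries crossed, the preparation numbers being arbitrary between tissues. The differences of preparation 1 after 60 and after 40 min, from separate libraries, had r = -0.51. If the 40 min brain and liver labels were exchanged, this would be r = 0.51. By construction, each opposite direction after 40 min given here would then be the same, and each same direction the opposite. An exchange was not tested. Preparation 1 after 40 min and preparation 2 after 60 min had r = -0.25, and preparation 1 after 60 and 15 min had r = -0.11. Across the 1759 H-strand sites, r was -0.03 between preparations after 60 min and 0.14 between 60 and 40 min of preparation 1. With the 40 min labels exchanged the H-strand value would be -0.14. These correlations describe sites of the same libraries and carry no test.

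**Figure D3:**
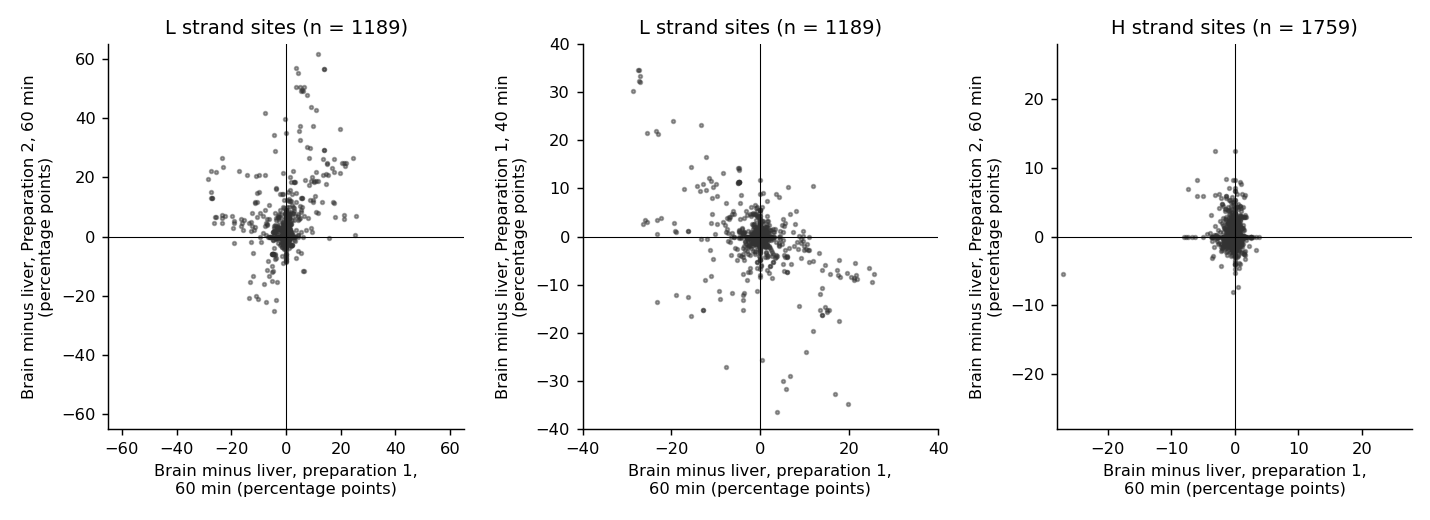
Brain minus liver difference of each shared site (percentage points) in preparation 1 after 60 min, against preparation 2 after 60 min (left, L strand), preparation 1 after 40 min (middle, L strand) and preparation 2 after 60 min (right, H strand). The L-strand points slope upward on the left (r = 0.25) and downward in the middle (r = -0.51), and the H-strand points show no slope (r = -0.03).

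Both brain libraries lay above both liver libraries at 166 L-strand sites, 14% of those shared, and below them at 95 sites (7.99%). On the H strand the order went the other way, with brain above at 133 sites (7.56%) and below at 235 sites (13.4%). Over all 1759 shared H-strand sites the median rate was 0% in brain preparation 2, where 3 reads at the median coverage are 3.19%, and 0.3 to 0.4% in the other libraries. After 40 min in preparation 1, 101 of the 166 L-strand sites had the opposite direction, 35 the same and 30 no difference. The share with the opposite direction was 60.8%, against 44.7% of all 953 L-strand sites with a difference after 60 min. The mean difference of the 166 sites was 7.79 points after 60 min and -3.70 points after 40 min. Of the 95 sites with brain below, 40 had the opposite direction after 40 min and 40 the same (42.1% each). Over all 953 L-strand sites the shares were 44.7% and 28.4%. Of the 133 H-strand sites with brain above, 79 kept that direction (59.4%), and 116 of the 235 with brain below had the opposite one (49.4%). Over all 1560 H-strand sites with a difference after 60 min, 40.4% kept the direction and 39.2% had the opposite one.

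Tested site by site with a quasi-likelihood model of unconverted and converted reads (edgeR, Benjamini-Hochberg adjusted over both strands, threshold 0.05), 6 of 1189 L-strand sites passed, 0.505%. Each was higher in brain. At an unadjusted p under 0.05 there were 59 L-strand sites, 36 higher in brain and 23 higher in liver. None of the 1759 H-strand sites passed (0%), with 57 at an unadjusted p under 0.05, of which 20 were higher in brain and 37 in liver. Fisher's exact test of the reads of both preparations together, which ignores the spread between them, called 22 L-strand sites (16 higher in brain, 6 in liver) and 2 H-strand sites, both higher in liver. The edgeR test with a negative binomial dispersion, its likelihood ratio test, limma on the empirical logit and a coverage minimum of 30 each called 0 L-strand sites.

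The 6 sites lie within 17 nt of CYTB, at nt 14852, 14859, 14861, 14866, 14867 and 14868, the capitals of the CYTB stretch printed above. At nt 14852, a CHH site, 46 of 144 reads were unconverted in brain preparation 1 (31.9%) and 11 of 29 in brain preparation 2 (37.9%). Liver preparation 1 had 17 of 230 (7.4%) and liver preparation 2 had 21 of 183 (11.5%), and synthetic mtDNA had 70 of 475 (14.7%). The difference between the tissue means was 25.5 points, with an edgeR adjusted p of 0.0014. Both brain libraries were above liver and above synthetic mtDNA, and both liver libraries were below synthetic mtDNA.

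The neighbouring sites gave nearly the same values. Averaged over the 6 sites, brain preparations 1 and 2 had 28.9% and 36.1%, liver preparations 1 and 2 had 7.82% and 10.9%, and synthetic mtDNA had 13.4%. In brain preparation 2 the rates of the 6 sites ran from 35.7 to 37.9% at a coverage of 28 to 29 reads, and in liver preparation 1 from 7.3 to 8.2% at 230 to 236 reads. These sites share reads and are not 6 independent differences.

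The difference of the CYTB stretch was not seen at the other durations. After 40 min brain preparation 1 had 9.10% and liver preparation 1 had 17.2%, with 15.8% in synthetic mtDNA, so brain was 8.07 points lower. After 15 min brain had 13.8%, liver 11.97% and synthetic mtDNA 19.5%, and after 5 min they had 45.5%, 51.5% and 61.0%. Within brain preparation 1 the stretch went from 45.5% through 13.8% and 9.10% and back up to 28.9% after 60 min, while liver preparation 1 ended at its lowest value. The 95% Wilson intervals of nt 14852 after 60 min were 24.9 to 39.9% in brain preparation 1, 22.7 to 56.0% in brain preparation 2, 4.67 to 11.5% in liver preparation 1 and 7.63 to 16.9% in liver preparation 2. After 40 min they were 7.70 to 15.8% in brain and 12.3 to 24.9% in liver. With the 40 min libraries in place of the 60 min libraries of preparation 1, no L-strand site passed the edgeR test, and none passed without brain preparation 1 or without liver preparation 1. Without brain preparation 2, 10 of 2104 L-strand sites passed.

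**Figure D4:**
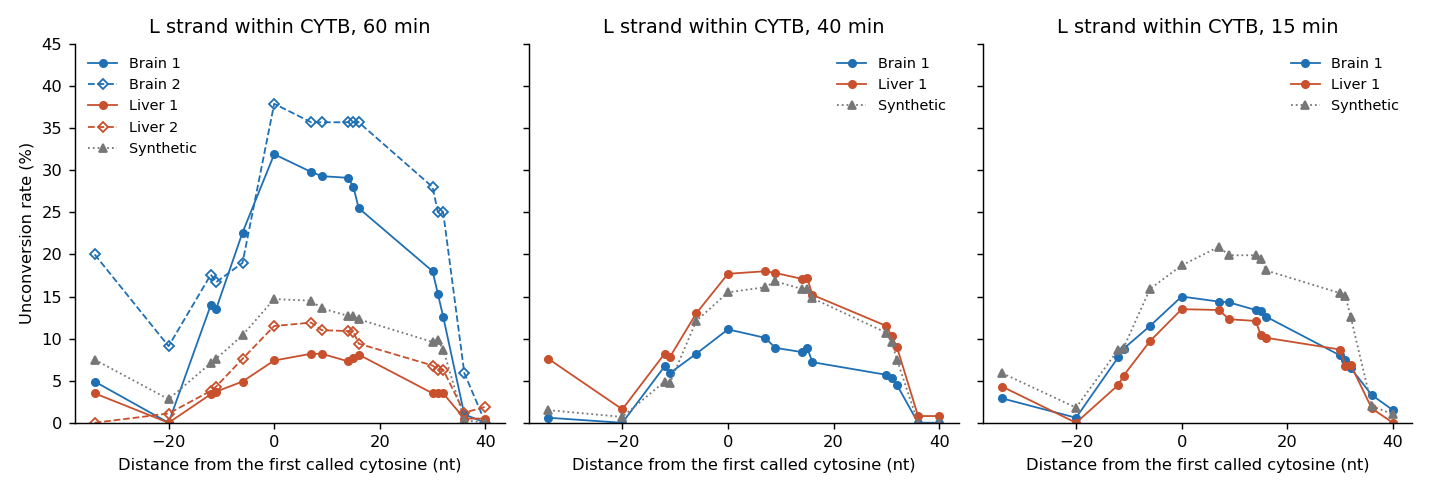
Unconversion rate (%) of the shared L-strand cytosines around the 6 sites that passed the test within CYTB, against the distance in nt from the first of them (nt 14852), after 60 min (left), 40 min (middle) and 15 min (right). After 60 min both brain libraries peak above liver and synthetic mtDNA (31.9% and 37.9% at distance 0), and after 40 min the brain library is the lowest (11.1% against 17.7% in liver and 15.5% in synthetic mtDNA).

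The 12 consecutive shared sites from nt 14840 to nt 14884, which include these 6, form the second longest run with brain above liver, at 22.5% and 29.0% in brain and 5.78% and 8.38% in liver. The longest was the ATP6 run of 18 sites, with 88.1% and 98.4% in brain preparations 1 and 2, 80.6% and 72.8% in liver preparations 1 and 2, and 84.1% in synthetic mtDNA. Its median coverage was 16 to 49 reads. After 40 min brain preparation 1 had 77.9% and liver preparation 1 had 86.8% over the same 18 sites, the opposite order. In the other direction, the longest run was that of 16 sites within ND2, with 82.3% and 74.9% in brain and 88.1% and 89.2% in liver. After 40 min it held 83.0% in brain and 83.2% in liver. A run of 8 sites at chrM:10949-10962 within ND4, another complex I subunit, had 95.1% and 93.4% in brain and 100% in both liver libraries, and 100% in brain and 88.0% in liver after 40 min. The longest H-strand runs were 4 sites, in either direction. Of the 8 runs named or counted here, 2 per strand and direction, 5 had the opposite direction in preparation 1 after 40 min.

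No L-strand site higher in liver passed the edgeR test, and the 3 with the smallest unadjusted p in that direction are given with their context in capitals as the cytosine and 15 bases on either side.
COX1, nt 5847: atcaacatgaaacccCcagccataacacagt
ND2, nt 4861: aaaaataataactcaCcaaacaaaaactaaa
ND2, nt 4332: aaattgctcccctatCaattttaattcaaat
The COX1 site, in a core subunit gene of complex IV, had 24.4% of 205 reads and 52.6% of 19 reads in brain preparations 1 and 2, and 51.7% of 89 reads and 39.6% of 48 reads in liver (edgeR adjusted p = 0.466). Only brain preparation 1 was low, and after 40 min the same preparation had 46.1% and liver 13.8%. The ND2 site at nt 4861 had 85.6% and 96.2% in brain and 93.2% and 92.7% in liver (adjusted p = 0.646). The ND2 site at nt 4332 had 86.8% and 93.9% in brain and 94.0% and 93.2% in liver (adjusted p = 0.948). At all 3 sites the brain preparations lay on either side of at least 1 liver library.

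On the H strand the sites with the smallest unadjusted p had rates of 8.6% or less, apart from 1 liver value at nt 14511. They are printed 5′ to 3′ on the H strand, with the site in capitals.
Brain higher, ND1, nt 3286: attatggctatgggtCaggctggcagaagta
Brain higher, ND5, nt 12648: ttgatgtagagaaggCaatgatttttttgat
Brain higher, ND2, nt 4292: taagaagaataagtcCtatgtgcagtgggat
Liver higher, mt-Rnr1, nt 553: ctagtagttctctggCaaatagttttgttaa
Liver higher, COX3, nt 8647: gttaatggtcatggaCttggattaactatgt
Liver higher, CYTB, nt 14511: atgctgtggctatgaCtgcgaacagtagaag
At nt 3286, in the complex I gene ND1, brain had 6.3% of 2103 reads and 8.6% of 639 reads, and liver 5.3% of 1527 reads and 4.4% of 1601 reads (edgeR adjusted p = 0.688). Brain was above liver in both preparations, synthetic mtDNA had 7.1%, and after 40 min brain had 5.6% and liver 6.9%. At nt 12648 of ND5 brain had 0.5% in both preparations and liver 0.1% and 0.0%, which rest on 5, 2, 2 and 0 unconverted reads. At nt 4292 of ND2 the counts were 2 reads in each brain library and 0 in each liver library.

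Of the sites higher in liver, nt 553 of mt-Rnr1, the gene of the 12S rRNA, had the lowest adjusted p of the H strand (0.16). Its rate was 0.7% of 1607 reads and 3.1% of 159 reads in brain and 3.4% of 439 reads and 3.1% of 426 reads in liver, with 2.8% in synthetic mtDNA. Brain preparation 1 alone was low there. At nt 8647 of COX3 brain had 0.1% and 1.8% and liver 3.1% and 2.1% (adjusted p = 0.426), and after 40 min brain had 1.9% and liver 1.0%. The CYTB site at nt 14511 had 2.9% and 0.0% in brain and 30% and 5.4% in liver (adjusted p = 0.426). Its 30% in liver preparation 1 is 15 of 50 reads, and synthetic mtDNA had 6.7% there after 60 min. After 40 min brain had 6.0%, liver 17.4% and synthetic mtDNA 23.9%. The sites at nt 553 and nt 8647 were the 2 H-strand calls of Fisher's exact test.

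Averaged over genes, no region passed on either strand. Of the 38 regions (37 genes and the control region), 21 had at least 5 shared L-strand sites and 33 at least 5 shared H-strand sites, and limma on log2(mean rate + 0.1) with adjustment over both strands called 0% of either. On the L strand the brain mean was higher in 11 regions and the liver mean in 10, and both brain libraries lay above both liver libraries in 7 regions (33.3%) and below in 1 (4.76%). On the H strand the brain mean was higher in 16 and the liver mean in 17, with brain above in 2 regions (6.06%) and below in 6 (18.2%). At an unadjusted level, the smallest p was 0.0098 among L-strand regions (COX2) and 0.018 among H-strand regions (TrnY).

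The largest L-strand differences were at the shared sites of COX2 and ATP6, genes of complexes IV and V. These sites cover only short stretches of each gene, and 1 read can cover several of them. All 8 COX2 sites lie within 50 nt, with 134 calls in brain preparation 2. The 22 ATP6 sites, most of them in the run of 18, had 317 calls in brain preparation 2. COX2, a core subunit of complex IV, had 93.0% and 91.8% in brain preparations 1 and 2 and 77.8% and 70.8% in liver, over 8 sites, with 73.1% in synthetic mtDNA. The difference of 18.1 points gave a limma adjusted p of 0.358, and after 40 min brain had 78.5% and liver 92.5%. ATP6, which contains the run of 18 sites, had 83.0% and 97.2% in brain and 76.6% and 67.5% in liver over 22 sites (difference of 18.1 points, adjusted p = 0.619), against 69.8% in brain and 82.7% in liver after 40 min. ND4L of complex I had 31.1% and 42.4% in brain and 28.2% and 30.4% in liver over 35 sites, and 26.9% and 27.1% after 40 min. In all 3 genes brain was above liver after 60 min and below it after 40 min.

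The most negative L-strand differences were small. ATP8, the other subunit of complex V, had 99.9% and 95.9% in brain and 99.96% and 99.8% in liver, ND2 had 89.9% and 92.2% against 91.9% and 92.8%, and the tRNA gene TrnY had at most 1.41% in each library. By group, the brain mean was higher in 4 of 7 complex I genes, in 3 of 3 complex IV genes, in 1 of 2 complex V genes and in CYTB, the complex III gene. CYTB as a whole had 68.1% and 70.2% in brain and 64.9% and 63.7% in liver over 61 sites (adjusted p = 0.358). The rRNA genes were split, mt-Rnr1 with 1.28% and 3.19% in brain and 1.03% and 1.31% in liver, and mt-Rnr2 with 6.32% and 8.77% in brain and 8.97% and 7.09% in liver. In the control region all 4 libraries agreed within 1 point, with 24.9% and 24.7% in brain, 25.3% in both liver libraries and 25.9% in synthetic mtDNA over 36 sites. It was the single L-strand region with both brain libraries below liver. Of the 8 L-strand regions whose groups did not overlap, 7 had the opposite direction in preparation 1 after 40 min, as had 17 of all 21 measured L-strand regions (81.0%).

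**Figure D5:**
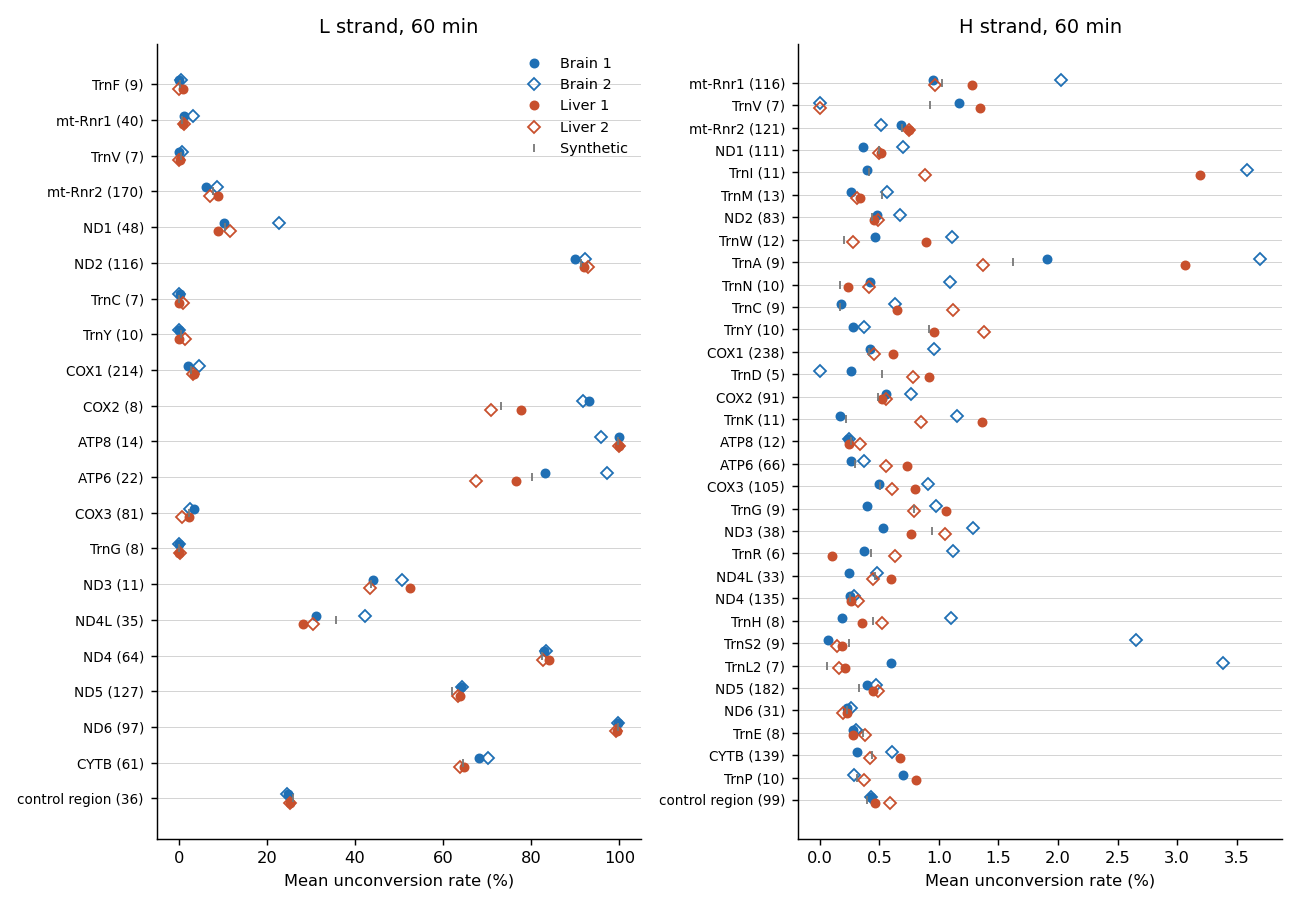
Mean unconversion rate (%) of each gene and the control region in the 60 min libraries, on the L strand (left) and H strand (right), in genome order and with the number of shared sites in brackets. Circles and diamonds are preparations 1 and 2 of brain (blue) and liver (orange), and ticks are synthetic mtDNA. The rates differ far more between L-strand regions than between tissues, and COX2 and ATP6 show the widest gaps between brain and liver.

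Every H-strand region mean was 3.70% or less, and the extremes were tRNA genes with few sites. TrnL2 had 0.600% and 3.39% in brain and 0.214% and 0.157% in liver over 7 sites (difference of 1.81 points, adjusted p = 0.489), and after 40 min 1.91% in brain and 0.400% in liver. Both brain libraries were above liver after 60 min, preparation 2 by the wider margin. The TrnL2 rates after 60 min rest on 5 and 4 unconverted calls in brain and 1 in each liver library. In brain preparation 2, 3 unconverted calls would be 1.99% of those in TrnL2. TrnS2, next to it, had 0.0667% and 2.66% in brain and 0.189% and 0.144% in liver, and TrnA had 1.91% and 3.70% in brain and 3.07% and 1.37% in liver. In the other direction TrnY had 0.280% and 0.370% in brain and 0.960% and 1.38% in liver over 10 sites (adjusted p = 0.358), but 2.49% in brain and 0% in liver after 40 min. TrnD had 0.260% and 0% against 0.920% and 0.780%, and TrnC had 0.178% and 0.633% against 0.644% and 1.12%. Unconverted calls after 60 min numbered 3 and 1 in brain and 4 and 6 in liver for TrnY. They were 2 and 0 against 6 and 5 for TrnD, and 4 and 3 against 5 and 15 for TrnC. In brain preparation 2, 3 unconverted calls would be 1.92% of those in TrnY and 1% in TrnD. The protein genes lay closer together, with differences from -0.158 to 0.102 points in complex I and from 0.00048 to 0.157 points in complex IV. Those of complex V were -0.327 and -0.05 points, and CYTB differed by -0.0885 points. In the H strand of the control region brain had 0.427% and 0.425% and liver 0.464% and 0.593%.

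In windows of 500 bp, of which all 33 per strand had at least 5 shared sites, no L-strand window passed (0%) and 1 H-strand window did (3.03%), higher in liver. It runs from nt 2001 to nt 2500, within mt-Rnr2, the gene of the 16S rRNA, and holds 10 shared sites. Summed over these sites, brain had 0 unconverted calls (1 cytosine in 1 read) of 397 in preparation 1 and 0 of 114 in preparation 2. Liver had 2 of 215 and 1 of 216. The limma adjusted p was 0.0048, from a test in which the brain libraries have no spread because both are at 0. The 3 liver calls of 431 against 0 of 511 in brain gave p = 0.0954 in a two-sided Fisher's exact test of the summed calls. This test was added after seeing the data. A count of 0 in 511 calls has an approximate one-sided 95% upper bound of 0.587% in brain. The summed liver rate of 0.696% is a point estimate from 3 calls, so this bound does not separate the tissues. The test and this bound treat calls of the same read as independent. Synthetic mtDNA had 0.07% in this window.

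The other windows followed the genes. Both brain libraries were above both liver libraries in 8 L-strand windows (24.2%) and below in 4 (12.1%), and on the H strand above in 2 (6.06%) and below in 8 (24.2%). The windows from nt 7001 and nt 8001 hold the same shared sites as COX2 and ATP6. The next largest L-strand difference was at nt 3501 to 4000, with 34.0% and 39.4% in brain and 24.0% and 33.0% in liver over 6 sites. The most negative were nt 4001 to 4500 in ND2 (87.6% and 84.9% against 91.9% and 92.3%), nt 10501 to 11000 in ND4 (97.3% and 95.7% against 99.7% and 99.4%) and nt 1501 to 2000 in mt-Rnr2 (17.2% and 17.9% against 24.5% and 15.3%), with limma adjusted p from 0.244 to 0.917. The H-strand window from nt 1 to nt 500 had 1.498% and 1.84% in brain and 1.34% and 0.889% in liver. The windows from nt 11501 and nt 6501 had 1.59% and 1.32% in brain preparation 2 and at most 0.690% in the other 3 libraries. The windows from nt 14501 in CYTB and nt 8001 in ATP6 were lower in brain (0.302% and 0.395% against 1.03% and 0.471%, and 0.271% and 0.345% against 0.798% and 0.553%).

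The matched durations followed brain and liver preparation 1 through the conversion reaction. Over 2048 L-strand sites covered in all 8 libraries, brain and liver had 58.5% and 58.9% after 5 min, 33.3% and 34.3% after 15 min, 31.4% and 32.4% after 40 min and 32.7% and 33.1% after 60 min. Brain minus liver was negative at each duration, at -0.387, -0.958, -1.04 and -0.347 points. Synthetic mtDNA had 59.7, 34.4, 31.4 and 32.5% at the same sites. With a single library per tissue and duration these differences have no replicate check.

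On the H strand the order of the tissues changed with the duration. Over 1857 sites brain and liver had 31.1% and 31.4% after 5 min, 3.44% and 3.34% after 15 min, 0.708% and 0.545% after 40 min and 0.505% and 0.704% after 60 min. Brain was lower after 5 and 60 min and higher after 15 and 40 min. Between 40 and 60 min the mean fell in brain and rose in liver. The share of sites with the higher rate in brain was 45.1, 51.1, 43.2 and 31.7% at the 4 durations, and that with the higher rate in liver 53.6, 44.9, 32.6 and 44.3%. Synthetic mtDNA had 28.9, 3.33, 0.565 and 0.534%, below both tissues after 5 and 15 min and between them after 40 and 60 min.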

How the data were processed

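The libraries were PBAT libraries (post-bisulfite adapter tagging, which adds adaptors by random priming once the DNA is converted), and were sequenced on a MiSeq. The authors trimmed reads with Trim Galore and mapped them with Bismark to mouse mtDNA (mm10), with versions not given in the sources used here. Per cytosine and strand, the authors deposited the unconversion rate as a percent with 1 decimal and the coverage as a count of reads, not normalized and not corrected for incomplete conversion. The study left out reads with nearly all cytosines unconverted before it gave rates. The deposited values appear to come from before that step, and single reads were not analysed here, so it was not repeated and the L-strand rates appear to include such reads. Nearby cytosines share reads.

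Groups come from the labels, which call the preparations biological replicates. The members and region lists were chosen with earlier results of these data known. Unconverted reads were taken as percent times coverage, rounded. Sites with coverage of 10 or more in all libraries compared were averaged with equal weight, and tissue means were compared by exact permutation tests (scipy 1.17.1). Sites were tested with edgeR 4.0.16 (quasi-likelihood, 2 columns per library, Poisson variance with a moderated quasi-dispersion, which amounts to a quasi-binomial model). This form was chosen after the default with a negative binomial dispersion had called 0 sites and had recovered fewer simulated differences. Genes and 500 bp windows with at least 5 shared sites were tested with limma 3.58.1 (trend) on log2(mean + 0.1). Adjusted p-values are Benjamini-Hochberg over both strands, threshold 0.05. Gene positions are those of the RefSeq annotation of GRCm38.p6, whose mtDNA is that of mm10. Named sites are, per strand and direction, up to 6 past the threshold with the largest difference, at most 1 per 50 nt, or the 3 with the smallest unadjusted p where fewer than 3 passed. Named regions and windows are those past the threshold and the 3 largest and 3 smallest differences per strand. Tests were checked on simulated data, with 200 sites changed by an odds ratio of 4 or 10. At L-strand sites, 53% and 83% of these changes were found with the simulation setting rho at 0.002, and 37% and 65% at 0.02. H-strand recovery was lower, 23% and 58%, then 4% and 18%. These shares count the changed sites only and were not split by the rate of a site. Recovery at the lowest and highest L-strand rates is therefore not shown. False calls at these rho values numbered 3 and 9 for L, 10 and 8 for H. The absence of H-strand calls therefore does not show that no H-strand site differed, and L-strand calls can include false ones. Alternatives were coverage minimums of 5, 20 and 30, pooled reads, own sites, other tests and offsets, a replicate block, leaving out each library, and 40 min libraries.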

Additional observations from a re-analysis of the deposited data

Results flagged for a closer look

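Results are given here where the brain minus liver difference had opposite signs in every library available at different durations. None of these changes of sign was tested, since each duration other than 60 min has 1 library per tissue. The H-strand mean difference of preparation 1 was -0.284 points after 5 min, 0.0936 points after 15 min and 0.163 points after 40 min.

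The following items are limited to the 6 CYTB sites and the named sites, regions and windows. At these items brain and liver did not overlap after 60 min, and preparation 1 had the opposite sign after 40 min. Other regions of this kind are left out, such as L-strand CYTB as a whole, at 4.85 points after 60 min and -1.99 points after 40 min. On the L strand the 40 min libraries lay closer to preparation 1 of the other tissue after 60 min than to that of their own. With their labels exchanged, each item of this paragraph would have the same sign at both durations. This holds by construction, since the items were chosen for opposite signs. The 40 min differences would be, for example, 8.07 points in the CYTB sites, 14.05 points in COX2 and 12.9 points in ATP6. The H-strand TrnL2, 1.81 points after 60 min, would turn opposite, to -1.51 points after 40 min. Over the shared sites, the 60 and 40 min differences of preparation 1 would have r = 0.51 (L strand) and -0.14 (H strand). Whether the labels were exchanged was not tested. For the 6 CYTB sites the 40 min difference was -8.07 points on average, and -6.6 points at nt 14852. At the H-strand sites nt 3286 and nt 8647 it was -1.3 and 0.9 points. Among L-strand genes it was -14.05 points in COX2, -12.9 points in ATP6 and -0.18 points in ND4L, with -14.05 and -12.9 points in the windows from nt 7001 and nt 8001 that hold the same sites. The other L-strand windows were those from nt 3501 (-1.37 points), nt 4001 (0.628 points) and nt 10501 (7.57 points). Among H-strand genes it was 2.49 points in TrnY, 0.08 points in TrnD and 1.08 points in TrnC.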

How the results depend on the processing

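Of 121 values recomputed under alternatives, 85 kept their direction, or a count within 1.5 times that reported. Under these alternatives the L-strand mean difference was positive, from 0.0391 points (coverage minimum 30) to 3.69 points (own sites of each library, which differ between libraries). It ran from 0.0812 points, without brain preparation 2, to 2.30 points when 1 library was left out. In preparation 1 alone, over 2210 shared L-strand sites, brain minus liver was -0.344 points after 60 min. The H-strand mean difference ran from -0.122 to 0.184 points when 1 library was left out, negative without brain preparation 2 or liver preparation 2 (-0.0269). The L-strand difference turned to -0.0183 points at CG (coverage minimum 20) and to -0.0844 (coverage minimum 30) and -0.120 points (without brain preparation 2) at CHG. Without brain preparation 2 the H-strand difference was -0.108 points at CG, -0.175 at CHG and -0.110 at CHH.

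The 6 L-strand sites became 0 at a coverage minimum of 30, with the edgeR likelihood ratio test, limma on the empirical logit, the negative binomial form of edgeR, or the 40 min libraries, and 0 to 10 when 1 library was left out. By Fisher's exact test on summed reads there were 22, and 34 without brain preparation 2, 19 in preparation 1 alone and 3 in preparation 2 alone. H-strand sites numbered 0 to 2 when 1 library was left out, and by Fisher's exact test 2, or 4 both without brain preparation 2 and in preparation 1 alone. The causes were not tested. Some alternatives were added after seeing the data (Fisher's exact test on fewer libraries, and contexts without brain preparation 2). The negative binomial form of edgeR was run first, and the main form was chosen after it had called 0 sites.

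At a coverage minimum of 20, L-strand windows numbered 1 and L-strand regions 0. On both strands, the windows and regions that passed changed in number when 1 library was left out, which leaves a tissue with 1 library. In the called H-strand window, the summed calls gave -0.696 points with p = 0.0954 in Fisher's exact test, which treats calls of the same read as independent.

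The preparation number is shared between tissues only as a number. The deviations of preparation 1 from its tissue mean had r = 0.11 between brain and liver over L-strand sites and 0.04 over H-strand sites. With the number as a replicate block, mean differences were 1.16 and 0.0240 points as before (exact sign-flip p = 1 for both), 6 L-strand and 0 H-strand sites passed, and 3 H-strand regions passed in place of 0, with no other count changed. In brain preparation 2, 3 reads at the median coverage are 12% (L strand) or 3.19% (H strand), and 1189 L-strand and 1759 H-strand sites were shared.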
